A study of Mus musculus with 21 samples.

Results

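The genes described here are 9 enzymes and partner proteins that make prostaglandins and leukotrienes from arachidonic acid: Pla2g4a, Ptgs1, Ptgs2, Ptges, Ptges3, Alox5, Alox5ap, Lta4h and Ltc4s. They were chosen by name, for what their products do, and all 9 were found among the 23420 genes of the count table. Bulk RNA was sequenced from inflammatory monocytes (IMs) that were enriched with a monocyte kit and sorted as live CD45+ CD11b+ Ly6G- cells with high Ly6C, with Siglec-F+ cells removed from lung tissue. Tumor-infiltrating inflammatory monocytes (TIMs) came from LN2E1 primary lung tumors (n = 5), from LN2E1 lymph node metastases (n = 5) and from lungs with LN4K1 tumors (n = 5). Bone marrow IMs (BM IMs) came from tumor-free FVB mice (n = 3) and tumor-free DBA2 mice (n = 3). LN2E1, named KAL-LN2-E1 in the labels, and LN4K1 are mouse lines of lung squamous cell carcinoma. LN2E1 was injected into the lung of FVB mice at 500000 cells per mouse, and LN4K1 into a vein of DBA2 mice at 300000 cells per mouse. Strain, line, route and number of cells therefore changed together between the models, and tissue changed together with tumor in every comparison of TIMs with BM IMs. The methods of the study describe mincing and enzyme digestion for lung tissue and no such step for marrow. Any effect of that step cannot be told apart from that of tumor or tissue. The labels give no age or sex, and the study used adult mice of both sexes. The methods of the study call the libraries of a group technical replicates and the labels do not name separate animals, so the p-values measure only the spread between these libraries.

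Both families of lipids start from arachidonic acid, which cytosolic phospholipase A2 (Pla2g4a) frees from membranes. Cyclooxygenase 1 (Ptgs1), present in many resting cells, and cyclooxygenase 2 (Ptgs2), an enzyme induced by inflammatory signals, turn it into prostaglandin H2, from which the prostaglandin E synthases Ptges and Ptges3 make prostaglandin E2. On the other branch, 5-lipoxygenase (Alox5) works with its activating protein (Alox5ap) to make leukotriene A4. Lta4h converts leukotriene A4 to leukotriene B4, which attracts neutrophils and monocytes, and Ltc4s converts it to leukotriene C4, the first of the cysteinyl leukotrienes. In tumors, prostaglandin E2 made by myeloid and tumor cells is known for restraining T cells and natural killer cells. These roles are background and were not measured here.

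The stretches before the starts of the cyclooxygenase genes are shown because these isozymes moved in opposite directions in TIMs. Each is the 250 bases before the gene's start in the RefSeq promoter table (GRCm38.p6, plus strand), at chr2:36230176-36230425 for Ptgs1 and chr1:150099781-150100030 for Ptgs2, with motifs found by letters in capitals.
Ptgs1: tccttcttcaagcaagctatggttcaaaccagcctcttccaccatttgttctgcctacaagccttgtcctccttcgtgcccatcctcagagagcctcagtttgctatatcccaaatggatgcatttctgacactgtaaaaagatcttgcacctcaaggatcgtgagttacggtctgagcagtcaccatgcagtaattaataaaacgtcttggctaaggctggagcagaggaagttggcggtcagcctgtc
Ptgs2: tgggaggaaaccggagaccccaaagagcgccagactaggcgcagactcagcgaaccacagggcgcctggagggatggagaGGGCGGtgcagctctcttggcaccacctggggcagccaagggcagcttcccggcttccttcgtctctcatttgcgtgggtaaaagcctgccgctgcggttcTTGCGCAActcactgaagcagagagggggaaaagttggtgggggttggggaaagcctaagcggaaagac
The capitals in Ptgs2 mark a GC box (GGGCGG) at -170 to -165 and a C/EBP motif (TTGCGCAA) at -69 to -62, counted back from the start. The search took in both strands of the whole window of 300 bases in the table, which holds 50 bases past the start, and also covered ACGTCA of the cyclic AMP response element, the E-box CACGTG, the AP-1 motif TGANTCA and the kappaB motif. In Ptgs2, ACGTCA at 13 to 18 and CACGTG at 17 to 22 after the start overlapped by 2 bases. None of the 6 motifs was found in the Ptgs1 window. Over the 32851 windows of the table, TTGCGCAA was found in 0.183%, ACGTCA in 7.51%, CACGTG in 7.15%, TGANTCA in 7.81%, the kappaB motif in 8.46% and GGGCGG in 35.7%. A match of letters is a description of the window and not a bound site. The table held 8 of the 9 genes.

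Total counts per library lay between 80772922 and 101043568, and each of the 9 genes passed the filter on low counts in every comparison. In GENCODE vM21 (GRCm38), the 9 genes are coding genes on chromosomes 1, 2, 5, 6, 10 and 11, and Pla2g4a and Ptgs2 lie 139 kb apart on chromosome 1. Exons of Ptgs1, Alox5ap and Ltc4s overlap exons of Gm43621, Gm19719 and Gm26542 on the opposite strand by 148, 189 and 268 bases. The libraries carry no strand, so these reads cannot be told apart. The 9 markers of the sorted cells, among them Ly6c2, Ccr2 and Csf1r, were above the limit of 3 counts in all groups. Separate libraries stood apart in 2 groups. Lymph node TIM replicate 1 had a median Pearson r of 0.844 with its group over log2 CPM, against 0.937 to 0.945 for the other 4 libraries, and LN4K1 lung TIM replicate 3 had 0.904, against 0.972 to 0.980. Results that rest on either are given with and without it.

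Compared with FVB BM IMs, primary tumor TIMs had more Ptgs2, Ptges, Ltc4s and Pla2g4a and less Ptgs1, Alox5, Lta4h, Alox5ap and Ptges3. Counts were compared with edgeR's quasi-likelihood test, and a gene rose or fell where the Benjamini-Hochberg adjusted p over all genes tested was under 0.05. Of the 9 genes, 4 rose and 5 fell, where 33.3% of all 14569 genes tested rose and 28.6% fell. At the stricter thresholds of the study for a differentially expressed gene (DEG; adjusted p under 0.0001 and absolute log2 fold change above 1), 1 was higher (all genes 7.72%) and 2 were lower (all genes 5.18%). In lymph node TIMs, 3 rose and 4 fell against FVB BM IMs (all genes 20.2% and 17.2%), with 1 higher DEG (all genes 4.01%) and no lower DEG (all genes 1.7%). In LN4K1 lung TIMs, 2 rose and 3 fell against DBA2 BM IMs (all genes 13.9% and 11%), with no higher DEG (all genes 1.21%) and 1 lower DEG (all genes 1.76%). With DESeq2, which the study used, the DEGs in the 3 comparisons were 5, 4 and 4 of the 9 genes, where 25.1%, 17% and 10.6% of all genes were DEGs by its shrunken fold changes. The median log2 fold change of the 9 genes was -0.35 in primary tumor, -0.19 in lymph node and 0.25 in LN4K1 lung TIMs, beside 0.08, -0.04 and 0.03 over all genes tested. The primary tumor and lymph node comparisons share their FVB BM IM libraries.

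**Figure D1:**
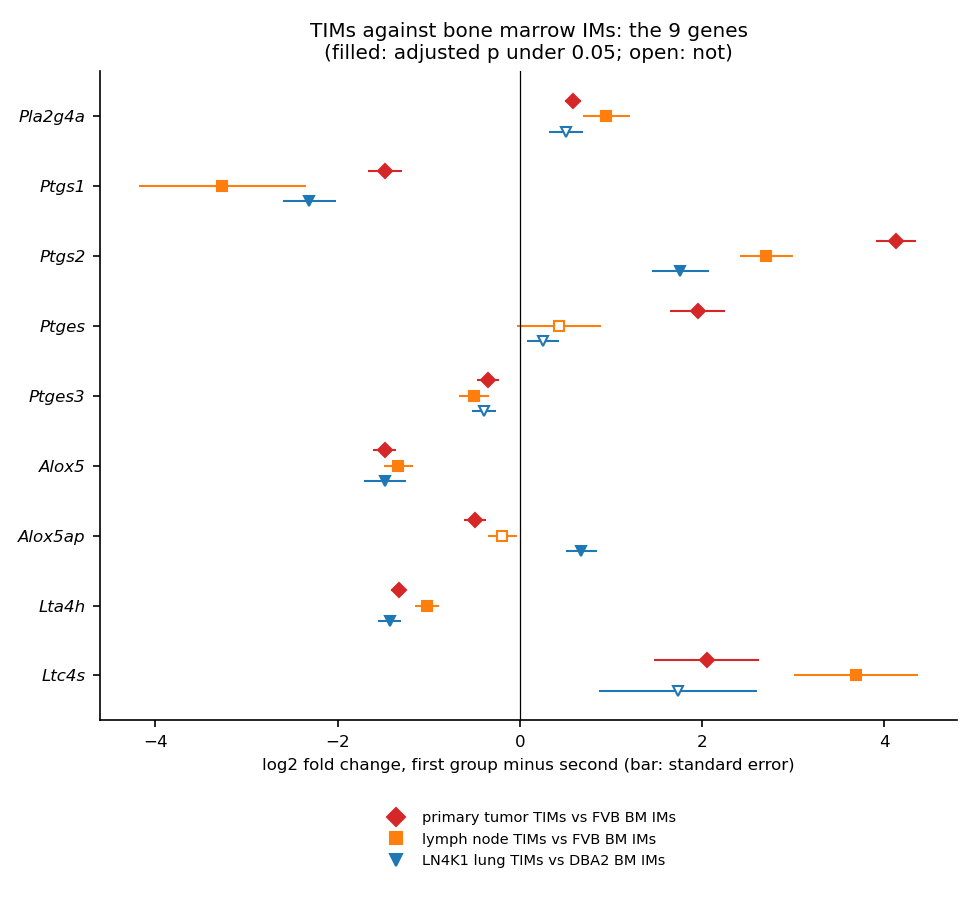
Log2 fold change of each of the 9 genes (rows) in the 3 comparisons of TIMs with BM IMs of their strain (colors), with the standard error as a bar; filled points had an adjusted p under 0.05. In all 3 comparisons, Ptgs2 lies right of 0 with filled points (4.13, 2.71 and 1.76), and Ptgs1, Alox5 and Lta4h lie left of 0 with filled points. These are 11.1% and 33.3% of the 9 genes, against 7.94% and 7.01% of all 12782 genes tested in all 3. Pla2g4a, Ptges and Ltc4s also lie right of 0 and Ptges3 left of 0 in all 3, with some points open.

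The largest rise among the 9 genes was that of Ptgs2 in primary tumor TIMs. Ptgs2 was at 20.4, 20.4 and 30.2 CPM (read counts scaled to library size over the 21 libraries) in FVB BM IM replicates 1 to 3. In primary tumor TIM replicates 1 to 5 it was at 392, 406, 415, 548 and 347 CPM, and in lymph node TIMs at 183, 113, 98.3, 199 and 180 CPM. These groups did not overlap, with primary tumor TIMs highest, lymph node TIMs between and FVB BM IMs lowest. Its log2 fold change was 4.13 (SE 0.22, 17.5-fold, adjusted p = 6.15e-07) in primary tumor TIMs and 2.71 (SE 0.29, 6.53-fold, adjusted p = 7.57e-05) in lymph node TIMs. In DBA2 mice, Ptgs2 was at 26.0, 39.7 and 35.2 CPM in BM IMs and at 88.3, 109, 147, 182 and 73.6 CPM in LN4K1 lung TIMs. Every LN4K1 lung TIM library was above every DBA2 BM IM library, and the log2 fold change was 1.76 (SE 0.31, 3.39-fold, adjusted p = 0.00309). In each setting and with each library left out, Ptgs2 passed the test in these 3 comparisons. In order of mean log2 CPM, primary tumor TIMs were followed by lymph node TIMs, LN4K1 lung TIMs, DBA2 BM IMs and FVB BM IMs, and lymph node TIMs overlapped LN4K1 lung TIMs, as DBA2 BM IMs did FVB BM IMs.

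Ptgs1, the other cyclooxygenase, fell in all 3 comparisons. It was at 37.7, 47.8 and 36.8 CPM in FVB BM IMs, at 11.6, 12.6, 12.5, 17.9 and 19.3 CPM in primary tumor TIMs and at 0.0242, 6.65, 3.12, 6.58 and 4.85 CPM in lymph node TIMs. The low value of lymph node TIM replicate 1 was 2 counts, under the limit of 3 that a count of 0 allows. The log2 fold change was -1.48 (SE 0.19, 2.79-fold lower, adjusted p = 1.10e-04) in primary tumor TIMs. With all 5 groups in a single fit its adjusted p was 0.0575. In lymph node TIMs the log2 fold change was -3.26 (SE 0.92, adjusted p = 0.0185), without replicate 1 it was -2.94 (adjusted p = 3.09e-05), and DESeq2's shrunken value was -2.35. Without FVB BM IM replicate 2 this call was lost (adjusted p = 0.0571). In DBA2 mice, Ptgs1 was at 103, 114 and 89.7 CPM in BM IMs and at 23.0, 22.7, 11.0, 17.8 and 34.5 CPM in LN4K1 lung TIMs, a log2 fold change of -2.31 (SE 0.29, 4.96-fold lower, adjusted p = 4.26e-04). No TIM library reached the BM IM libraries of its strain. Platelets carry Ptgs1, and the summed level of 9 platelet and megakaryocyte markers was 28.5 to 161 CPM in BM IMs of FVB mice, 0.855 to 49.0 CPM in those of DBA2 mice and 2.66 to 18.7 CPM over the TIM libraries. Gp6 was at or under 3 counts in all primary tumor and lymph node TIM libraries. The part of these cells in the level of Ptgs1 was not tested. In bulk RNA, fewer cells of a type and less RNA per cell cannot be told apart.

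The balance between the cyclooxygenases turned over. Per kb of exon (3884 bases for Ptgs1 and 4580 bases for Ptgs2), the ratio of Ptgs2 to Ptgs1 within a library lay between 0.362 and 0.696 in FVB BM IMs and between 0.214 and 0.333 in DBA2 BM IMs. It lay between 15.2 and 28.6 in primary tumor TIMs, with a median of 27.2. In lymph node TIMs it was 14.4 to 31.5 over 4 libraries, with a median of 26.2, and replicate 1, with 2 Ptgs1 counts, was left out. LN4K1 lung TIMs, at 1.81 to 11.3 with a median of 4.09, lay above all BM IM libraries and below all primary tumor TIM libraries. Thus Ptgs1 was the more abundant transcript in each BM IM library, and Ptgs2 in each TIM library. A ratio within a library does not depend on how libraries were scaled, and no test was made of it.

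**Figure D2:**
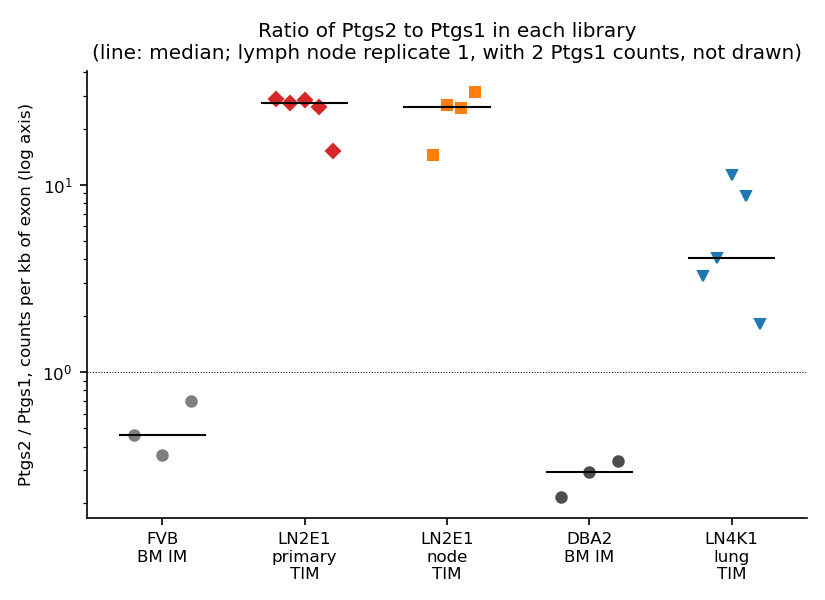
Ratio of Ptgs2 to Ptgs1 in counts per kb of exon (log axis), with 1 point per library, by group; the line is the median and the dotted line marks equal levels. All BM IM libraries lie below 1 and all TIM libraries drawn lie above 1, with LN4K1 lung TIMs between 1.81 and 11.3.

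Pla2g4a, which supplies the substrate, rose in the LN2E1 tumors. It was at 42.3, 41.9 and 44.9 CPM in FVB BM IMs and at 64.8, 65.8, 69.1, 66.3 and 60.3 CPM in primary tumor TIMs, groups that did not overlap, with a log2 fold change of 0.58 (SE 0.09, 1.49-fold, adjusted p = 3.59e-04). Pla2g4a in lymph node TIMs was at 132, 86.8, 58.3, 66.4 and 71.5 CPM, with replicate 1 highest, and the log2 fold change was 0.95 (SE 0.26, adjusted p = 0.0161). Without replicate 1 it was 0.72 (adjusted p = 0.0044), and the call was lost without FVB BM IM replicate 1 (adjusted p = 0.0617) or replicate 2 (adjusted p = 0.0656). In LN4K1 lung TIMs, at 49.4 to 68.1 CPM against 29.0, 47.5 and 35.9 CPM in DBA2 BM IMs, the log2 fold change of 0.51 (SE 0.19) did not pass (adjusted p = 0.0776). It passed without DBA2 BM IM replicate 2 (log2 fold change 0.71, adjusted p = 0.0392) and with DESeq2 (adjusted p = 0.0367). Its neighbor on chromosome 1, Ptgs2, was 17.5-fold higher in primary tumor TIMs, where Pla2g4a was 1.49-fold higher.

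Of the prostaglandin E synthases, Ptges, the inducible membrane enzyme, rose in primary tumor TIMs. It was at 7.26, 5.84 and 4.86 CPM in FVB BM IMs and at 16.2, 31.2, 13.8, 27.4 and 28.9 CPM in primary tumor TIMs, with no overlap and a log2 fold change of 1.95 (SE 0.30, 3.88-fold, adjusted p = 3.86e-04). Ptges in lymph node TIMs was at 15.6, 7.19, 3.52, 5.91 and 7.94 CPM and overlapped FVB BM IMs, with a log2 fold change of 0.43 (SE 0.46, adjusted p = 0.517) that was 0.04 without replicate 1 (adjusted p = 0.941). In LN4K1 lung TIMs, at 7.42 to 9.94 CPM, it overlapped the 6.53 to 8.00 CPM of DBA2 BM IMs, and the log2 fold change was 0.25 (SE 0.18, adjusted p = 0.348). Fibroblasts also make Ptges, and markers of fibroblasts were highest in primary tumor TIMs too. They were also above BM IMs in lymph node and LN4K1 lung TIMs, where Ptges did not pass. The sum of 6 fibroblast markers was 365 to 1112 CPM in primary tumor TIMs, 0.836 to 87.1 CPM in lymph node TIMs, 1.31 to 43.0 CPM in LN4K1 lung TIMs and at most 0.359 CPM in BM IMs. Col3a1, Pdgfra, Dcn and Lum were at or under 3 counts in all BM IM libraries. Within the primary tumor TIMs, the 3 libraries with the most Ptges (31.2, 28.9 and 27.4 CPM) had fibroblast sums of 1041, 691 and 1112 CPM, and those with 16.2 and 13.8 CPM had 531 and 365 CPM. Lymph node TIM replicate 1, with 15.6 CPM of Ptges, had a fibroblast sum of 0.836 CPM. The sum of 6 lung epithelium markers was also highest in primary tumor TIMs, at 140 to 887 CPM. It was 0.131 to 0.981 CPM in lymph node TIMs, 7.32 to 103 CPM in LN4K1 lung TIMs and 1.15 to 2.60 CPM in BM IMs. In BM IMs, Sftpc, Sftpa1, Sftpb and Cldn18 were at or under 3 counts. Among primary tumor TIMs, the library with 31.2 CPM of Ptges had the lowest sum (140 CPM) and that with 28.9 CPM the highest (887 CPM). Lymph node TIM replicate 1 had a lung epithelium sum of 0.981 CPM. The gate took CD45+ cells, and fibroblasts and epithelial cells lack CD45. Their markers were nevertheless present in primary tumor TIM libraries, with Col3a1 at 194 to 582 CPM and Sftpc at 43.5 to 624 CPM. The part of fibroblasts or epithelial cells in the rise of Ptges was not tested.

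**Figure D3:**
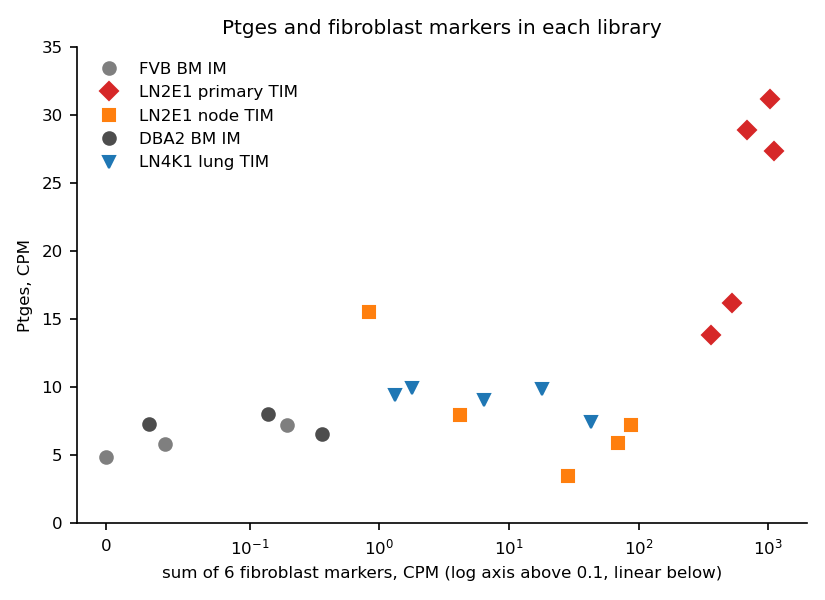
Level of Ptges (CPM) against the summed level of 6 fibroblast markers (CPM, log axis above 0.1) in the 21 libraries, by group. The 5 primary tumor TIM libraries lie at the far right, with 13.8 to 31.2 CPM of Ptges, and lymph node TIM replicate 1 reaches 15.6 CPM at a marker sum of 0.836 CPM.

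Ptges3, the cytosolic prostaglandin E synthase that is also the Hsp90 cochaperone p23, varied little. FVB BM IMs had 51.0 to 58.8 CPM, primary tumor TIMs 34.6 to 48.0 CPM and lymph node TIMs 30.6 to 46.3 CPM. DBA2 BM IMs had 40.4 to 49.3 CPM and LN4K1 lung TIMs, which overlapped them, 30.3 to 42.2 CPM. It fell in primary tumor TIMs (log2 fold change -0.35, SE 0.12, adjusted p = 0.0312) and lymph node TIMs (log2 fold change -0.50, SE 0.17, adjusted p = 0.0377). The value in LN4K1 lung TIMs was -0.39 (SE 0.13, adjusted p = 0.0585). These calls lay close to the threshold. The first was lost with DESeq2 (adjusted p = 0.0669), with DESeq2 size factors (adjusted p = 0.0642), with all 5 groups in a single fit (adjusted p = 0.0646) and without FVB BM IM replicate 1 (adjusted p = 0.122) or 3 (adjusted p = 0.0711) or primary tumor TIM replicate 2 (adjusted p = 0.052) or 5 (adjusted p = 0.0508). The second was lost without FVB BM IM replicate 1, 2 or 3 (adjusted p = 0.129, 0.0677 and 0.0968) or lymph node TIM replicate 2 or 4 (adjusted p = 0.0773 and 0.0717). The third passed with DESeq2 (adjusted p = 0.0277) and without LN4K1 lung TIM replicate 3 (adjusted p = 0.0278) or 5 (adjusted p = 0.0483). Per kb of exon, Ptges was at a median of 0.0646 of the level of Ptges3 in FVB BM IMs, 0.328 in primary tumor TIMs, 0.0967 in lymph node TIMs, 0.0916 in DBA2 BM IMs and 0.146 in LN4K1 lung TIMs.

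**Figure D4:**
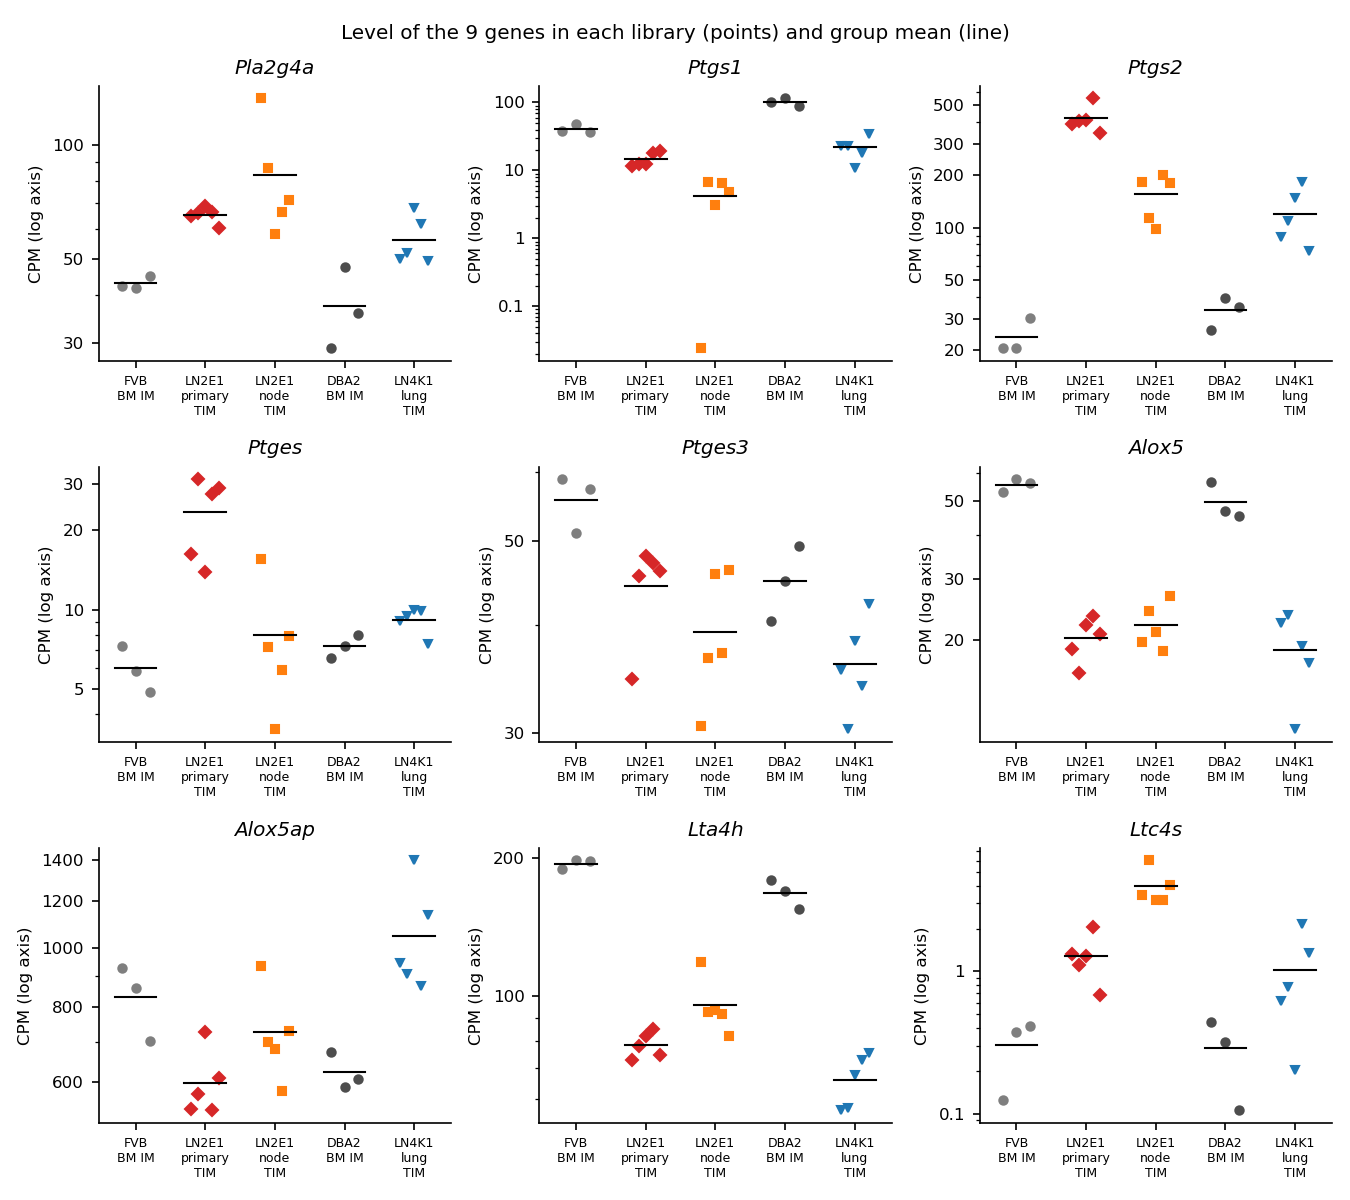
Level of each of the 9 genes in every library (points, CPM on a log axis) with the group mean as a line; each panel is 1 gene and has its own axis. Ptgs2 is highest in primary tumor TIMs (347 to 548 CPM), and Alox5 and Lta4h are lower in every TIM library than in any BM IM library.

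On the leukotriene branch, Alox5 and Lta4h fell in all 3 comparisons. Alox5 was at 53.2, 57.6 and 56.5 CPM in FVB BM IMs, at 18.9, 16.1, 22.1, 23.4 and 20.9 CPM in primary tumor TIMs and at 19.8, 24.2, 21.1, 18.6 and 26.8 CPM in lymph node TIMs. In DBA2 mice it was at 56.7, 46.8 and 45.4 CPM in BM IMs and at 22.4, 23.6, 11.1, 19.3 and 17.2 CPM in LN4K1 lung TIMs. The 15 TIM libraries lay between 11.1 and 26.8 CPM and the 6 BM IM libraries between 45.4 and 57.6 CPM, so they did not overlap. The log2 fold change of Alox5 was -1.48 (SE 0.13, adjusted p = 1.00e-05) in primary tumor, -1.34 (SE 0.16, adjusted p = 1.34e-04) in lymph node and -1.48 (SE 0.23, adjusted p = 0.00137) in LN4K1 lung TIMs.

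Lta4h, which makes leukotriene B4, was at 189, 197 and 196 CPM in FVB BM IMs, at 72.7, 78.0, 82.1, 84.8 and 74.6 CPM in primary tumor TIMs and at 119, 92.5, 93.6, 91.5 and 81.9 CPM in lymph node TIMs. It was at 179, 169 and 155 CPM in DBA2 BM IMs and at 56.6, 57.2, 67.6, 72.7 and 75.2 CPM in LN4K1 lung TIMs. All 15 TIM libraries lay under all 6 BM IM libraries. The log2 fold change was -1.33 (SE 0.08, adjusted p = 1.33e-06), -1.02 (SE 0.13, adjusted p = 2.49e-04) and -1.43 (SE 0.13, adjusted p = 4.00e-05), and the calls of Alox5 and Lta4h held in each setting and with each library left out. Granulocytes are rich in Alox5, and markers of granulocyte precursors also differed between these groups. The sum of 8 neutrophil precursor markers was 4185 to 5109 CPM in BM IMs of FVB mice and 2876 to 3520 CPM in those of DBA2 mice. In TIMs it was 50.8 to 197 CPM (primary tumor), 24.3 to 110 CPM (lymph node) and 234 to 640 CPM (LN4K1 lung), and Camp was at or under 3 counts in every lymph node TIM library. Of these 8 markers, Lcn2 in LN4K1 lung TIMs went the other way, with a mean of 86.2 CPM against 79.2 CPM in DBA2 BM IMs. The sum of 7 eosinophil markers was 463 to 1256 CPM over BM IM libraries and 5.87 to 77.1 CPM over TIM libraries. That of 7 mature neutrophil markers was 1010 to 2489 CPM and 651 to 2092 CPM. Among them, S100a8 and S100a9 had means of 725 and 708 CPM in FVB BM IMs and 137 and 98.3 CPM in primary tumor TIMs. Retnlg was also lower in these TIMs. Mmp8 and Csf3r went from 436 and 272 CPM to 613 and 566 CPM, and Cxcr2 and Mmp9 were also higher. The part of these cells in the fall of Alox5 and Lta4h was not tested.

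Alox5ap, which presents arachidonic acid to Alox5, was the most abundant of the 9 genes per kb of exon in all 5 groups and did not follow Alox5. It was at 927, 861 and 702 CPM in FVB BM IMs, at 540, 572, 726, 538 and 609 CPM in primary tumor TIMs and at 935, 699, 679, 580 and 730 CPM in lymph node TIMs. The log2 fold change was -0.49 (SE 0.13, adjusted p = 0.00691) in primary tumor TIMs, where the groups overlapped, and -0.19 (SE 0.16, adjusted p = 0.385) in lymph node TIMs. In LN4K1 lung TIMs, at 947, 905, 1399.8, 865 and 1134 CPM against 672, 587 and 607 CPM in DBA2 BM IMs, Alox5ap rose by a log2 fold change of 0.68 (SE 0.17, adjusted p = 0.0172), with no overlap. The rise was 0.55 without LN4K1 lung TIM replicate 3 (adjusted p = 0.0025), and the call was lost without DBA2 BM IM replicate 2 (adjusted p = 0.0795) or 3 (adjusted p = 0.0724). The sum of 8 macrophage markers was 1370 to 2555 CPM in DBA2 BM IMs and 4672 to 6365 CPM in LN4K1 lung TIMs. Apoe gave most of it (means 1094 and 4510 CPM). Emr1, Mrc1, Cd68 and Mertk also had higher means in LN4K1 lung TIMs, and C1qa, C1qb and C1qc lower means. The sum of the 9 markers of the sorted cells was 49222 to 54672 CPM and 71641 to 127923 CPM. Lyz2 gave most of it (means 43655 and 75886 CPM), and of the 9 only Ly6c2 had a lower mean (2583 and 1483 CPM). In primary tumor TIMs, where Alox5ap fell, the macrophage sum was 3043 to 3863 CPM, against 1848 to 2088 CPM in FVB BM IMs. The part of macrophages in these changes was not tested.

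Ltc4s, the least abundant of the 9 genes per kb in both groups of BM IMs and in primary tumor and LN4K1 lung TIMs, rose in LN2E1 tumors. It was at 0.125, 0.377 and 0.411 CPM in FVB BM IMs, or 11, 37 and 46 counts. In primary tumor TIMs it was at 1.31, 1.11, 1.29, 2.05 and 0.686 CPM and in lymph node TIMs at 3.43, 6.01, 3.15, 3.17 and 4.03 CPM, and all these libraries were above those of FVB BM IMs. The log2 fold change was 2.05 (SE 0.58, 4.14-fold, adjusted p = 0.0119) and 3.69 (SE 0.68, 12.9-fold, adjusted p = 0.00213). In LN4K1 lung TIMs, at 0.615, 0.781, 0.203, 2.15 and 1.35 CPM against 0.442, 0.319 and 0.106 CPM in DBA2 BM IMs, the groups overlapped and the log2 fold change was 1.74 (SE 0.86, adjusted p = 0.179). Without LN4K1 lung TIM replicate 3 it was 2.0 (adjusted p = 0.0473). Mast cells, basophils and eosinophils are known for Ltc4s. The sum of 10 mast cell markers was 78.3 to 166 CPM in primary tumor, 91.0 to 171 CPM in lymph node and 5.73 to 16.0 CPM in LN4K1 lung TIMs and 38.3 to 48.8 CPM in FVB and 2.43 to 4.93 CPM in DBA2 BM IMs. Hdc, which makes histamine, gave most of the sum in LN2E1 TIMs, at 73.8 to 142 CPM in primary tumor and 76.1 to 143 CPM in lymph node libraries. Other markers of the list went both ways. Cpa3, Ms4a2 and Fcer1a had means of 1.05, 1.14 and 1.24 CPM in primary tumor TIMs and 10.0, 3.68 and 5.68 CPM in FVB BM IMs, and Cma1 was also lower. Gata2, at 8.75 CPM against 4.93 CPM in FVB BM IMs, Kit, Tpsb2 and Tpsab1 had higher means in primary tumor TIMs. The mast cell proteases Mcpt4, Tpsb2, Tpsab1 and Cma1 were at or under 3 counts in all lymph node TIM libraries, where Ltc4s was highest. The sum of 5 basophil markers was 422 CPM in lymph node TIM replicate 1, 3.42 to 15.02 CPM in the other lymph node TIM libraries and 223 to 275 CPM in FVB BM IMs. Ltc4s in that replicate, at 3.43 CPM, lay within the 3.15 to 6.01 CPM of the other 4, and without it the rise in lymph node TIMs was 3.73 (adjusted p = 0.00106). The part of mast cells in the rise of Ltc4s was not tested.

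The LN2E1 metastases differed from the primary tumors in 3 of the 9 genes. In lymph node TIMs compared with primary tumor TIMs, 1 rose and 2 fell, where 6.15% and 5.55% of all 13488 genes tested did so. Ptgs2 fell by 1.44 on the log2 scale (SE 0.21, 2.70-fold lower, adjusted p = 0.00194), with every lymph node TIM library under every primary tumor TIM library. Ptges had a log2 fold change of -1.54 (SE 0.38, adjusted p = 0.0228) with an overlap through lymph node TIM replicate 1, -1.92 without it (adjusted p = 0.00341) and -0.90 as DESeq2's shrunken value. This call was lost without primary tumor TIM replicate 2, 4 or 5 or lymph node TIM replicate 2 (adjusted p = 0.0576, 0.059, 0.0571 and 0.051). Ltc4s rose by a log2 fold change of 1.62 (SE 0.41, 3.08-fold, adjusted p = 0.0255; DESeq2's shrunken value 0.99) with no overlap, but its call was lost without primary tumor TIM replicate 1, 2, 3 or 5 or lymph node TIM replicate 2 (adjusted p = 0.0596, 0.0696, 0.0513, 0.0645 and 0.0587) and with all 5 groups in a single fit (adjusted p = 0.0625). Ptgs1, with a log2 fold change of -1.79 (SE 0.79, adjusted p = 0.178), passed without lymph node TIM replicate 1 at -1.47 (adjusted p = 0.00506). For Alox5, Alox5ap, Lta4h, Pla2g4a and Ptges3 the log2 fold changes lay between -0.16 and 0.36, and none passed.

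Between the strains, BM IMs of tumor-free mice differed in Ptgs1 and Alox5ap. In DBA2 compared with FVB BM IMs, 1 gene rose and 1 fell, where 11.5% and 9.57% of all 12905 genes tested did so. Ptgs1 was 2.56-fold higher in DBA2 BM IMs (log2 fold change 1.35, SE 0.14, adjusted p = 6.19e-04), a call lost with all 5 groups in a single fit (adjusted p = 0.269). Alox5ap had a log2 fold change of -0.39 (SE 0.11, adjusted p = 0.0439), lost without FVB BM IM replicate 1 or 2 (adjusted p = 0.13 and 0.147) or any DBA2 BM IM replicate (adjusted p = 0.0606, 0.157 and 0.14). Ptgs2, at 0.52 (SE 0.22, adjusted p = 0.125), passed without FVB BM IM replicate 3 (0.76, adjusted p = 0.0133).

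The models were then compared by subtracting the LN4K1 lung change (TIMs minus BM IMs) from the LN2E1 primary tumor change. Of the 9 genes, 2 had a positive and 1 a negative difference past the test, where 13.2% and 13.3% of all 15182 genes tested did. Ptgs2 rose more in LN2E1 primary tumors (log2 difference 2.39, SE 0.37, adjusted p = 6.61e-04), as did Ptges (log2 difference 1.72, SE 0.34, adjusted p = 0.00256). Alox5ap moved in opposite directions (log2 difference -1.15, SE 0.21, adjusted p = 0.00164). These 3 calls held in each setting and with each library left out. Ptgs1, at a log2 difference of 0.85 (SE 0.38, adjusted p = 0.111), passed without LN4K1 lung TIM replicate 5 (log2 difference 1.06, adjusted p = 0.0364). For Alox5, Lta4h, Pla2g4a, Ptges3 and Ltc4s the log2 differences were 0.02 (SE 0.28), 0.12 (SE 0.15), 0.09 (SE 0.20), 0.06 (SE 0.18) and 0.33 (SE 0.99), and none passed. Strain, line and route cannot be told apart in these differences.

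Per kb of exon, Alox5ap led in each group, at 421 to 740 CPM per kb. In BM IMs, Lta4h came next (31.8 CPM per kb in FVB and 27.5 in DBA2 mice), and Ptgs2, at 5.17 and 7.34 CPM per kb, was at place 7 and place 6 of 9. In each TIM group Ptgs2 was at place 2, with 92.0 CPM per kb in primary tumor, 33.8 in lymph node and 26.2 in LN4K1 lung TIMs. Ptges3 and then Lta4h followed in each TIM group, Ptges3 at 20.0, 17.7 and 16.3 CPM per kb.

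The wider pathway was followed in 67 other genes for release of arachidonic acid, other synthases, receptors, breakdown and regulation. In primary tumor TIMs, 28 of the 61 tested rose and 11 fell, or 45.9% and 18% beside the 33.3% and 28.6% of all genes, with a median log2 fold change of 0.47. Of those that rose, Ptgfr, Slco2a1 and Dpep1 (log2 fold change 10.9, 10.1 and 9.64) were too low to be tested in lymph node TIMs with FVB BM IMs. They passed the filter on low counts through the primary tumor libraries, so a fall could not have been called for them. In lymph node TIMs, 22 of 58 rose and 8 fell (37.9% and 13.8%, all genes 20.2% and 17.2%, median 0.44), and in LN4K1 lung TIMs 16 of 55 rose and 2 fell (29.1% and 3.64%, all genes 13.9% and 11%, median 0.26). Of the 12 regulators of the synthases, 8, 5 and 7 rose (66.7%, 41.7% and 58.3%, all genes 33.3%, 20.2% and 13.9%) and 1, 1 and 0 fell in these 3 comparisons. Cebpb was the regulator that fell, with log2 fold changes of -2.50 in primary tumor (adjusted p = 0.00117) and -1.94 in lymph node TIMs (adjusted p = 0.0189). Of the other prostanoid synthases, 1 of 7, 0 of 7 and 0 of 5 rose and 4, 3 and 0 fell (57.1%, 42.9% and 0%, all genes 28.6%, 17.2% and 11%). Tbxas1, which makes thromboxane, fell in primary tumor TIMs (log2 fold change -0.78, adjusted p = 0.00488) and lymph node TIMs (log2 fold change -1.02, adjusted p = 0.0049), and was at -0.40 in LN4K1 lung TIMs (adjusted p = 0.212). Hpgds, which makes prostaglandin D2, was at most at a mean of 4.45 CPM, and its call in primary tumor TIMs (log2 fold change -0.85, adjusted p = 0.0439) was lost without any FVB BM IM replicate or primary tumor TIM replicate 1, 2, 4 or 5 (adjusted p = 0.051 to 0.123), and with all 5 groups in a single fit (adjusted p = 0.36). Alox15 passed in none of the 3 comparisons, with adjusted p = 0.544, 0.117 and 0.153, though without LN4K1 lung TIM replicate 4 its log2 fold change there was -3.15 (adjusted p = 0.00159).

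Of the receptors for prostaglandin E2, Ptger4 rose in all 3 comparisons, and Ptger1 rose and Ptger2 fell in the LN2E1 tumors. Ptger4 (EP4) was at 36.6 ± 8.37 CPM (SD, n = 3) in BM IMs of FVB mice, against 126 ± 11.7 CPM (SD, n = 5) in the primary tumors and 82.5 ± 9.43 CPM (SD, n = 5) in the lymph nodes. In DBA2 mice it was at 36.9 ± 7.67 CPM (SD, n = 3) in BM IMs and 117 ± 13.9 CPM (SD, n = 5) in TIMs. The 3 log2 fold changes were 1.76, 1.17 and 1.60 (adjusted p = 1.30e-05, 7.35e-04 and 1.54e-04). Ptger2 (EP2) fell by 0.90 on the log2 scale in primary tumor TIMs (adjusted p = 0.00357) and by 1.66 in lymph node TIMs (adjusted p = 9.93e-04). In LN4K1 lung TIMs its log2 fold change was -0.04 (adjusted p = 0.936), and without LN4K1 lung TIM replicate 3 it was 0.10 (adjusted p = 0.715). Ptger1 (EP1) had log2 fold changes of 1.18, 1.53 and 0.11 (adjusted p = 9.33e-04, 0.00103 and 0.768), and Ptger3 (EP3) did not pass (adjusted p = 0.684, 0.956 and 0.0699). For the leukotrienes, Cysltr1, a receptor of the cysteinyl leukotrienes, rose in all 3 comparisons (log2 fold change 0.81, 1.16 and 1.26, adjusted p = 3.46e-04, 0.00466 and 1.20e-04). Ltb4r1, the high-affinity receptor of leukotriene B4, rose in primary tumor TIMs (log2 fold change 0.54, adjusted p = 0.00246) and lymph node TIMs (log2 fold change 0.58, adjusted p = 0.0186). The second call was lost when any FVB BM IM library was left out (adjusted p = 0.0512 to 0.0698), and in LN4K1 lung TIMs Ltb4r1 was at -0.32 (adjusted p = 0.354).

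**Figure D5:**
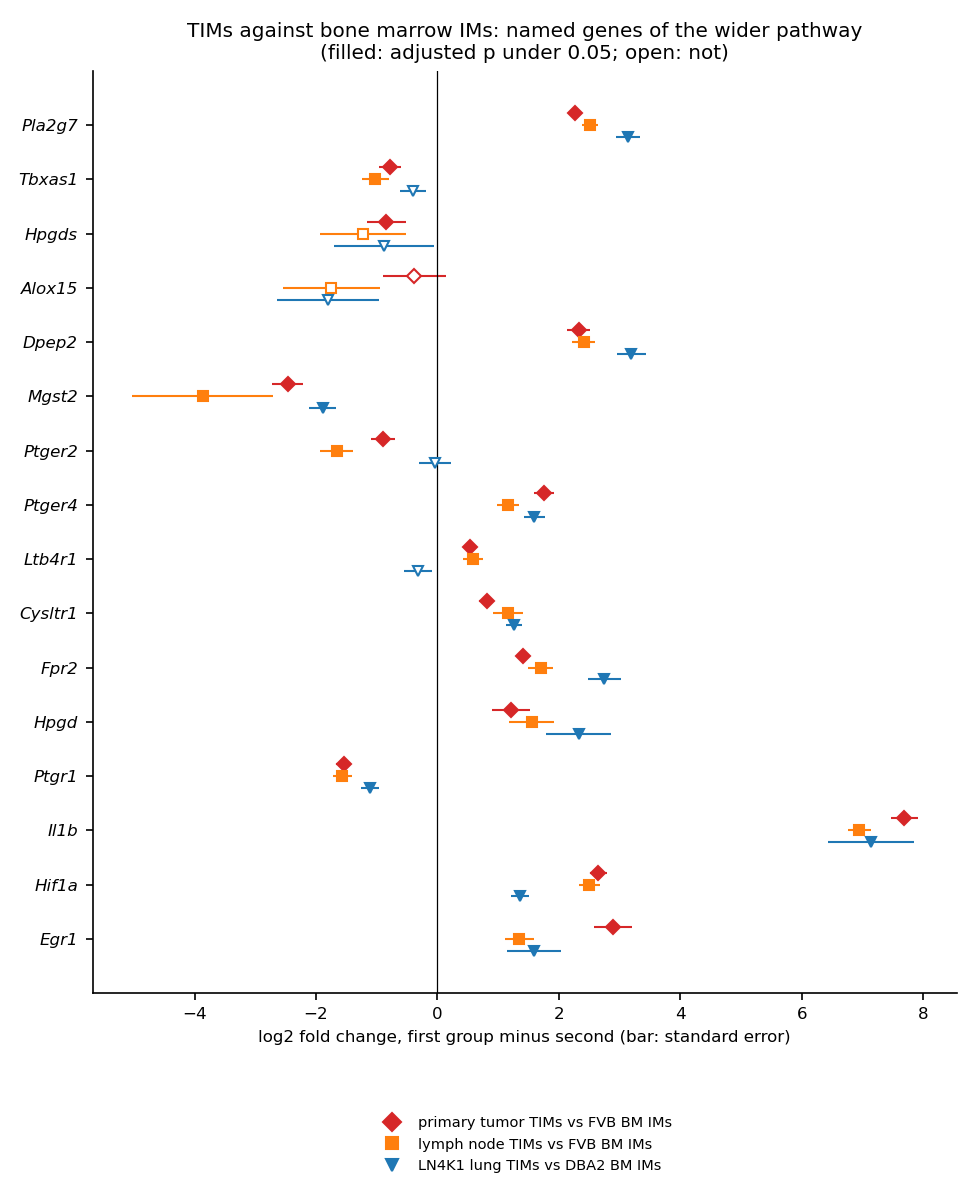
Log2 fold change of 16 genes of the wider pathway (rows) in the 3 comparisons of TIMs with BM IMs of their strain (colors), with the standard error as a bar; filled points had an adjusted p under 0.05. Ptger4, Cysltr1, Pla2g7 and Dpep2 lie right of 0 in all 3 comparisons, Mgst2 and Ptgr1 left of 0 in all 3, and Il1b at 6.95 to 7.68.

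Of the 53 of these genes tested in all 3 comparisons, 11 rose and 2 fell in each of them, or 20.8% and 3.77%, where 7.94% and 7.01% of all 12782 genes tested in all 3 did. Ptger4 and Cysltr1 are among the 11. Pla2g7, which inactivates platelet-activating factor, was at 368 ± 29.7 CPM (SD, n = 3) in FVB BM IMs, 1789 ± 97.8 CPM (SD, n = 5) in primary tumor TIMs, 2103 ± 228 CPM (SD, n = 5) in lymph node TIMs and 2150 ± 246 CPM (SD, n = 5) in LN4K1 lung TIMs. Dpep2, a dipeptidase that cleaves leukotriene D4, rose by log2 fold changes of 2.33, 2.41 and 3.19. Fpr2, a receptor of formyl peptides and lipoxin A4, rose by 1.42, 1.70 and 2.75. Hpgd, which starts the breakdown of prostaglandin E2, rose by 1.21, 1.55 and 2.32. Among regulators, Il1b, a known inducer of Ptgs2, rose by log2 fold changes of 7.68, 6.95 and 7.14, and the last was 8.05 without DBA2 BM IM replicate 3 (adjusted p = 1.05e-04). Hif1a rose by 2.65, 2.50 and 1.36 and Egr1 by 2.88, 1.35 and 1.59. The last call of Egr1 was lost without any DBA2 BM IM replicate or LN4K1 lung TIM replicate 2, 4 or 5 (adjusted p = 0.0507 to 0.102). Tnf and Nfkb1, named here after their values were seen, were the other 2 that rose. Ptgr1, which inactivates leukotriene B4 and 15-keto-prostaglandins, fell by 1.55, 1.57 and 1.11 on the log2 scale. Mgst2, which can make leukotriene C4, had log2 fold changes of -2.46, -3.87 and -1.89. It was at 0 counts in 1 lymph node TIM library, and the second call was lost without any FVB BM IM replicate or lymph node TIM replicate 4 (adjusted p = 0.0571 to 0.0664), while without lymph node TIM replicate 2 its log2 fold change was -4.50 (adjusted p = 0.0246). The third was lost with all 5 groups in a single fit (adjusted p = 0.0688).

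As a description, the genes most like each of the 9 were taken as those with the highest Pearson r of log2 CPM over the 21 libraries, among 8008 other genes with a mean log2 CPM above 3. The libraries fall into 5 groups, so such an r mainly follows the differences between groups. Ptgs2 was most like Tlr2 (r = 0.947), Fndc3b (r = 0.942) and Heatr1 (r = 0.942). Ptgs1 was most like Snrnp70 (r = 0.962), Rem1 (r = 0.961) and Ankrd54 (r = 0.958). The best match of Ptges was weaker, with Rcn1 (r = 0.780), Calu (r = 0.748) and Nrg1 (r = 0.728). Alox5 was most like Ncaph2 (r = 0.959), Rfc5 (r = 0.958) and Tuba4a (r = 0.955), and Lta4h most like Tubb4b (r = 0.968), Nasp (r = 0.967) and Fen1 (r = 0.956). Alox5ap was most like Mrpl36 (r = 0.970), Atraid (r = 0.962) and Cib1 (r = 0.961), and Ltc4s most like Usb1 (r = 0.905), Ccr9 (r = 0.894) and Hgsnat (r = 0.879). Pla2g4a was most like Ms4a4c (r = 0.907), Cyp51 (r = 0.895) and Armcx3 (r = 0.889), and Ptges3 most like Golt1b (r = 0.862), Tuba1c (r = 0.827) and Mad2l1bp (r = 0.787).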

How the data were processed

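The deposited values are raw read counts per gene symbol for 21 libraries of a non-stranded kit (SMART amplification, Nextera XT). Per the methods of the study, the authors removed adapters (BBDuk), mapped reads to mm10 (BBMap), sorted them (SAMtools 1.8 in the submitters' processing notes) and counted them (featureCounts 1.5.2). Counts were tested in R 4.3.3 with edgeR 4.0.16 (TMM, minimum count 10, minimum total 15, robust quasi-likelihood, Benjamini-Hochberg), with DESeq2 1.42.0 as an alternative. Only the libraries of a comparison entered its fit. SE is the absolute log2 fold change over the square root of F, and is approximate. CPM used TMM factors, and log2 CPM a prior count of 2. The limit of 3 counts covers counting error only. Each pair of replicates differed by more than sampling noise. Lengths are unions of GENCODE vM21 exons, matched by symbol. Tables and figures used Python 3.11.15. Named genes outside the 9 were 8 fixed pathway genes and up to 6 per direction that passed in all 3 comparisons with TIMs, by their smallest absolute change. Others were named with counts of 5 or fewer or for the filter on low counts. Members, lists and tests were chosen with earlier results of these data known.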

Additional observations from a re-analysis of the deposited data

Results flagged for a closer look

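Among the 27 groups of 5 libraries examined, of which chance flags about 1 in 20, a single library lay far from the rest for 2 genes. Ptgs1 was at 0.0242 CPM (2 counts) in lymph node TIM replicate 1, against 3.12 to 6.65 CPM in the other 4. Ptges3 was at 34.6 CPM in primary tumor TIM replicate 1, against 45.5 to 48.0 CPM in the other 4. Without it, the log2 fold change of Ptges3 in primary tumor TIMs was -0.27 (adjusted p = 0.0347).

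The change from BM IMs to TIMs differed between LN2E1 primary tumors and LN4K1 lung tumors, in the test of the difference itself, for 3 of the 9 genes and 18 of the 61 other pathway genes tested. Of the 61, 16.4% had a positive and 13.1% a negative difference, beside 13.2% and 13.3% of all 15182 genes tested. The values follow for the genes described above. The log2 difference was 2.39 for Ptgs2, 1.72 for Ptges and -1.15 for Alox5ap. Of the wider pathway, it was 0.88 for Ltb4r1, 1.31 for Hif1a, -0.84 for Dpep2, -0.86 for Pla2g7 and -1.31 for Fpr2.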

How the results depend on the processing

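No setting or left-out library turned the direction of a call of the 9 genes or the 16 other pathway genes tested this way. The number of the 9 genes that were DEGs in primary tumor, lymph node and LN4K1 lung TIMs was 3, 1 and 1 with edgeR, 5, 4 and 4 with DESeq2 (shrunken or unshrunken), and 0, 0 and 0 with the replicate block. It was 3 and 3 in lymph node and LN4K1 lung TIMs with all 5 groups in a single fit, and 2 in lymph node TIMs with no filter. When a library was left out, it ranged from 0 to 3 in both. The number past an adjusted p of 0.05 then ranged from 4 to 7 for lymph node TIMs with FVB BM IMs. It ranged from 1 to 4 for lymph node with primary tumor TIMs and from 1 to 3 for the BM IMs of both strains. For both strains it was 0 with all 5 groups in a single fit (all genes 868 higher and 727 lower of 15357). All-gene shares are not given for the DEG counts with the block, the single fit or no filter, or for left-out libraries. Changes in these counts therefore cannot be told from changes over all genes.

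Replicate numbers did not pair the libraries: the correlation of same-numbered deviations was as low as -0.30, and no comparison had every pair above 0.1. As a block they left 6, 5 and 4 of the 9 genes past the test in the 3 comparisons with BM IMs, where 40.9%, 26.9% and 9.72% of all genes passed. The calls lost were Ptges3, Alox5ap and Ltc4s in primary tumor (adjusted p = 0.111, 0.108 and 0.068), Ptgs1 and Ptges3 in lymph node (0.087 and 0.0744) and Alox5ap in LN4K1 lung TIMs (0.0988), and Ltc4s between lymph node and primary tumor TIMs (0.116).

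Values that changed sign had not passed, and did not pass with the new sign. The log2 difference between models was -0.0033 with no filter and -0.0065 with all groups in a single fit for Ptges3, and -0.042 and -0.044 for Alox5. When a library was left out, it ranged from -0.030 to 0.14 for Ptges3, -0.13 to 0.12 for Alox5, -0.11 to 0.81 for Ltc4s and -0.11 to 0.24 for Pla2g4a. Ltc4s between the strains then ranged from -0.50 to 0.34. Ptger2 in LN4K1 lung TIMs was 0.021 with all groups in a single fit and ranged from -0.18 to 0.24 without a library. CPM by total count raised 10 of 45 group means, all in BM IMs, by more than 1 SD, and Ptges over Ptges3 in counts, not per kb, was higher than the ratio per kb in 4 groups by more than their spread. Low counts limit Ltc4s (10 to 454 counts in a library) and Ptgs1 in lymph node TIM replicate 1 (2 counts).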
